A study of Homo sapiens with 4 samples.

Results

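The lipocalin cluster genes described here are LCN6, LCN8, LCN10, LCN12, LCN15, PTGDS and RP11-216L13.16, 7 of the 60662 genes in the deposited table. They are lipocalins encoded near each other on the long arm of chromosome 9, together with a readthrough gene that spans LCN6 and LCN10. The members were chosen by measured values of these same libraries, with their difference between JMJD3 and vector cells known, so that this difference is described below and was not tested. The study overexpressed JMJD3, the H3K27 demethylase encoded by KDM6B, in NB4 cells and sequenced polyA-selected RNA. NB4 is a human acute promyelocytic leukemia (M3) cell line that carries PML-RARα. There were 2 libraries of cells transduced with a control vector and 2 of cells transduced with JMJD3. Both groups received a lentivirus of the pLVX-IRES-GFP type and were sorted for GFP according to the study's methods, and nothing states that the libraries within a group go back to separate transductions, so that p-values measure only the spread between these samples.

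Lipocalins are small, mostly secreted proteins that fold into a barrel around a pocket for hydrophobic ligands. Several lipocalins of this cluster are best known from the epididymis, where they enter the fluid that surrounds maturing sperm. PTGDS is the exception with an enzymatic role, since it converts prostaglandin H2 to prostaglandin D2 and is abundant in brain and cerebrospinal fluid.

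The deposited values of a library were whole multiples of 1 step for most low genes, so that each step stands for 1 sequenced fragment. Among genes of up to 10 fragments, 96.6% of the values above 0 lay within 0.01 of a whole number in each library. Values are therefore given first as fragments, that is, the deposited estimated count divided by the step of its library. The libraries held 34190262 and 38947060 fragments for vector replicates 1 and 2, and 35431638 and 41876210 for JMJD3 replicates 1 and 2. A count of 0 allows up to 3 fragments, which is between 0.0671 and 0.0925 in counts scaled by library size (CPM), and limits of this kind cover counting error only.

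KDM6B itself had 511 and 501 fragments in vector cells and 1412 and 1973 in JMJD3 cells. The log2 fold change was 1.48 (standard error, SE, 0.13, edgeR adjusted p = 0.00114), with both JMJD3 libraries above both vector libraries. Transcripts of the construct and of the endogenous gene are not separated in the counts.

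LCN10 and LCN6 were the cluster genes with the highest counts, and both were low but detected in vector cells and higher in JMJD3 cells. LCN10 (ENSG00000187922) had 13.0 and 18.3 fragments in vector replicates 1 and 2, and 305 and 319 in JMJD3 replicates 1 and 2. LCN6 (ENSG00000267206) had 24.0 and 29.6 fragments in the vector libraries and 286 and 333 in the JMJD3 libraries. For both genes each JMJD3 library was above each vector library, and the replicates of a group lay close together. After scaling, LCN10 averaged 0.452 ± 0.0720 CPM (SD, n = 2) over the vector libraries and 7.65 ± 0.733 CPM (SD, n = 2) over the JMJD3 libraries. The corresponding levels of LCN6 were 0.776 ± 0.0509 CPM (SD, n = 2) and 7.56 ± 0.162 CPM (SD, n = 2). The log2 fold change of LCN10 was 4.07 (SE 0.20) and that of LCN6 was 3.29 (SE 0.17). Thus LCN10 was 16.8-fold and LCN6 9.77-fold higher in JMJD3 cells. In bulk RNA a smaller number of expressing cells and less RNA in each of them cannot be told apart, and the same holds where a value is higher.

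The promoters of LCN10, LCN6, LCN12 and PTGDS are shown because both JMJD3 libraries had more of their fragments than both vector libraries. For PTGDS this difference is not certain with counting error in both groups. RefSeq (GRCh38.p14) holds promoters for 6 of the members, LCN10, LCN6, LCN8, LCN15, LCN12 and PTGDS. The 250 bases before the start are chr9:136742941-136743190 for LCN10 and chr9:136748526-136748775 for LCN6, both on the minus strand, and chr9:136952023-136952272 for LCN12 and chr9:136977254-136977503 for PTGDS, both on the plus strand. For LCN12 this start lies inside the outer bounds of the gene. Capitals mark a match, on either strand, to TTGCNNAA (a C/EBP-like motif), TGANTCA (AP-1-like), AGGTCA (a nuclear receptor half-site) or TATAAA, the TATA box.
LCN10: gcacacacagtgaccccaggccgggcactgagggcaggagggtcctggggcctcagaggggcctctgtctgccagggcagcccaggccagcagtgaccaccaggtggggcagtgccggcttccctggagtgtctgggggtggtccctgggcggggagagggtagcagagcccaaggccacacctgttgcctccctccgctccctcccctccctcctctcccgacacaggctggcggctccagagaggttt
LCN6: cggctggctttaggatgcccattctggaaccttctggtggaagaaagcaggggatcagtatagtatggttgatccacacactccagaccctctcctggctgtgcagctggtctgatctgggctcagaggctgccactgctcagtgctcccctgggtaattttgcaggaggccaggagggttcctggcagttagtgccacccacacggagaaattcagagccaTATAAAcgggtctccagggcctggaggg
LCN12: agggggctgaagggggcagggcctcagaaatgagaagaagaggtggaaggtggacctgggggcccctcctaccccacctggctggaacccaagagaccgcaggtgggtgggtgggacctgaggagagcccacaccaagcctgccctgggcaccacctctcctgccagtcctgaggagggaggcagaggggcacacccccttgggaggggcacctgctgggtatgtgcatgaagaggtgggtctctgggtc
PTGDS: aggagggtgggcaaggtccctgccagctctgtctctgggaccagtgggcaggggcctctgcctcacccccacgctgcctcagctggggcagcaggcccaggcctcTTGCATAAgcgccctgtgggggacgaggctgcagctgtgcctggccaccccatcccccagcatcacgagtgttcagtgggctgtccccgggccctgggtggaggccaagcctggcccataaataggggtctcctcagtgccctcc
LCN6 holds TATAAA from 28 bases before its start, as 10.7% of 35116 promoters do somewhere in this window. LCN15, which was not detected in JMJD3 cells, also holds TATAAA, from 32 bases before its start. PTGDS holds a match to TTGCNNAA from 145 bases before its start, a motif found in 9.05% of promoters. The LCN10, LCN12 and LCN8 windows hold none of the 4 motifs, of which TGANTCA occurs in 6.57% and AGGTCA in 12.1% of promoters. The windows of LCN10, LCN6, LCN12 and PTGDS hold 6, 3, 1 and 5 CG dinucleotides, and those of LCN8 and LCN15 hold 12 and 6, with a median of 11 over all promoters. All but that of LCN8 thus lie under the median. A match is a description of letters and not of a factor's binding.

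RP11-216L13.16 (ENSG00000204003) is a readthrough gene, annotated over LCN6 and LCN10 on the same strand. It had 0 and 4.07 fragments in vector replicates 1 and 2, and 18.8 and 52.3 in JMJD3 replicates 1 and 2. Both JMJD3 libraries were higher, but their ratio to each other was further from 1 than for any other member with over 3 fragments in them. Its log2 fold change was 3.90 (SE 0.84), from 2.92 without vector replicate 1 to 7.96 without vector replicate 2, where the vector group is left at 0 and the fitted value depends on the prior count. In the gene models of GENCODE 44 the readthrough gene shares 72.0% of its exon bases with LCN10 and 28.0% with LCN6, and LCN10 and LCN6 share none with each other. Conversely, 44.8% of the exon bases of LCN10 and 44.3% of those of LCN6 belong to the readthrough gene too. The readthrough gene thus has no exon base in these models that is not also one of LCN10 or LCN6, and a fragment can be assigned to it only by how it joins exons or ends.

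The 3 overlapping genes carry fractional values in most libraries, and the fractions cancel in their sum. In vector replicate 2, for example, LCN10, LCN6 and the readthrough gene were 0.327, 0.394 and 0.0672 away from the nearest whole number. Summed over the 3 genes, the libraries held 37, 52, 610 and 704 fragments in the order vector replicates 1 and 2 and JMJD3 replicates 1 and 2, each within 0.000121 of a whole number. The sum thus behaves as a count of whole fragments divided among these genes, and does not depend on how they were divided. Counted as 1 gene, they had a log2 fold change of 3.65 (SE 0.16).
The division itself differed between the groups. LCN10 took 35.1% and 35.2% of the summed fragments in the vector libraries, and 50.0% and 45.3% in the JMJD3 libraries. LCN6 took 64.9% and 56.9% against 47.0% and 47.3%, and the readthrough gene 0% and 7.82% against 3.08% and 7.43%. Per LCN10 fragment there were thus 1.85 and 1.62 of LCN6 without JMJD3 and 0.940 and 1.04 with it. With 37 and 52 fragments in vector cells these shares are loosely determined, and their difference was not tested.

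Per length of transcript, LCN6 was the most abundant of the members. Its deposited FPKM (a value scaled by transcript length and depth) was 1.82 and 1.60 in vector cells and 17.7 and 17.7 in JMJD3 cells. By this level 27.5% and 26.3% of the 15246 tested genes were below it in the vector libraries, and 64.3% and 64.0% in the JMJD3 libraries. LCN10 was at 0.151 and 0.417 FPKM in vector cells and 3.88 and 3.13 FPKM in JMJD3 cells. The vector libraries therefore differed more by FPKM than by fragments for LCN10, since 1 FPKM stood for 85.9 fragments in vector replicate 1 and 43.9 in vector replicate 2. Values per length rest on which transcripts the authors' tool assumed, and fragments are the firmer scale for LCN10.

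LCN12 (ENSG00000184925), another lipocalin described in the epididymis, was a smaller and fainter case. It had 6 and 7 fragments in vector cells and 33 and 30 in JMJD3 cells, 0.189 ± 0.00493 CPM (SD, n = 2) and 0.778 ± 0.151 CPM (SD, n = 2). The log2 fold change was 2.05 (SE 0.38), and the groups did not overlap. In JMJD3 cells LCN12 was at 1.20 and 0.997 FPKM, above 20.6% and 18.4% of the tested genes.
PTGDS (ENSG00000107317), the prostaglandin D synthase of the cluster, had 0 fragments in both vector libraries and 9 and 6 in the JMJD3 libraries. The 95% counting intervals of the JMJD3 values run from 4.12 to 17.1 and from 2.20 to 13.1 fragments. Against a floor of 3 fragments in each vector library, and with the JMJD3 counts taken as measured, PTGDS was at least 2.15-fold higher in JMJD3 cells. The lower limit of JMJD3 replicate 2 lies under that floor, so that with counting error in both groups a difference is not certain. It remained a trace transcript, at 0.436 and 0.246 FPKM.
LCN8 (ENSG00000204001) had 0 and 2 fragments in vector cells and 0 and 3 in JMJD3 cells, and LCN15 (ENSG00000177984) had 1 and 0 in vector cells and 0 in both JMJD3 libraries. Both lipocalins were at or under the floor in every library, so that no difference was detectable at this depth and no fold is given.

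Of the 7 members, 4 passed the filter on low counts, LCN10, LCN6, LCN12 and RP11-216L13.16, and LCN12 and RP11-216L13.16 passed only through the JMJD3 libraries. In these 4 both JMJD3 libraries were above both vector libraries, as in 39.6% of all tested genes, and nothing is read from this count because the members were selected on this contrast. For the same contrast 7.55% of the tested genes passed as higher and 2.82% as lower when at least 2-fold was asked for as well. In order of the fitted log2 fold change among the tested genes, LCN10 stood at place 14, RP11-216L13.16 at 16, LCN6 at 35 and LCN12 at 205. These places rest on the contrast by which the members were selected, so that they are a description only. LCN10, LCN6 and RP11-216L13.16 also divide fragments among them, so that their places are not independent. Vector replicate 1 carries lane label 20 and the other libraries lane label 17. Within lane label 17, that is, without vector replicate 1, the log2 fold change was 3.90 for LCN10, 3.17 for LCN6 and 2.04 for LCN12. On log2(FPKM + 1), a scale that shrinks low genes, LCN10 was at 1.81, LCN12 at 0.63 and RP11-216L13.16 at 0.42.

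The differences were uneven along the chromosome. On GRCh38.p14 the start of LCN6 lies 5.59 kb from that of LCN10, and those of LCN8 and LCN15 lie 15.6 and 21.6 kb from it, on the same strand. LCN12 and PTGDS follow at 206 and 235 kb, on the opposite strand. The pair with high counts in JMJD3 cells is thus adjacent to the pair at or under the floor, and 10 tested genes that are not members lie between LCN15 and LCN12. Their log2 fold changes ran from -0.78 (RABL6) to 0.98 (CCDC183) with a median of 0.02, against 0.04 over all tested genes. Of the 10, 1 passed the test as higher and 3 as lower, against 21.6% and 19.1% of all tested genes. RABL6 is among the 3, and its counts are divided with a second identifier of that name. None of the 10 reached 2-fold higher. CCDC183, at 6.77 and 14.6 fragments in vector cells and 25.4 and 23.8 in JMJD3 cells, did not pass (edgeR adjusted p = 0.0917).
Beyond the cluster on either side, 51 tested genes that are not members had a start within 500 kb of it, those between LCN15 and LCN12 included. Of these, 8 passed as higher and 19 as lower, against 21.6% and 19.1% of all tested genes, and their median log2 fold change was -0.18. With no filter on low counts 4 were higher and 7 lower, and 5 were higher with the DESeq2 Wald test or with limma on either FPKM scale. Without a single library the number higher was 5 (vector replicate 1), 12 (vector replicate 2), 3 (JMJD3 replicate 1) and 5 (JMJD3 replicate 2), and the number lower was 28, 17, 10 and 5 in the same order. The largest values were those of the lncRNA genes NALT1, beside NOTCH1, and LINC01451, at 1.82 and 1.75, on at most 27 fragments in any library, and LINC01451 did not pass the test. GPSM1, EXD3 and NOXA1, a subunit of NADPH oxidase complexes, lay farther off and rose by log2 fold changes of 1.18, 1.26 and 1.29. These neighbours were named after their values were seen.

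A list of 25 neighbours without lipocalin genes gave more detail. Of the 22 tested, 3 rose and 7 fell at an adjusted p under 0.05 and any fold, the rule that 21.6% of all tested genes passed as higher and 19.1% as lower. Their median log2 fold change was -0.19. C9orf139, a lncRNA gene, went from 669 and 759 fragments to 1598 and 1962, and its log2 fold change was 1.07 (SE 0.10, edgeR adjusted p = 0.00123). It was the only gene of the list over 2-fold. EGFL7, which encodes a secreted factor of endothelial cells and hosts miR-126, rose by 0.57, and NOTCH1, the receptor, by 0.44 on the log2 scale. Neither passed with limma on either FPKM scale or with no filter on low counts. NOTCH1 was lost without either JMJD3 library. EGFL7 was lost with the DESeq2 Wald test and on leaving out any library.
Among the genes that fell, UAP1L1 had 1625 and 1947 fragments in vector cells and 1122 and 1294 under JMJD3, and its log2 fold change was -0.81 (SE 0.10, edgeR adjusted p = 0.0024). RABL6, a small GTPase-like protein, had a log2 fold change of -0.78, but a second gene identifier with the same name held between 1326 and 1642 fragments a library, so that its counts are divided and uncertain. DIPK1B, PHPT1, a phosphohistidine phosphatase, and AGPAT2, an acyltransferase of phospholipid synthesis, fell, with log2 fold changes of -0.48, -0.47 and -0.47. None of these 3 passed with no filter on low counts or without either JMJD3 library, and limma on both FPKM scales also lost DIPK1B, and upper quartile scaling PHPT1. Without a single library the list held 2 (vector replicate 1), 7 (vector replicate 2), 1 (JMJD3 replicate 1) and 1 (JMJD3 replicate 2) genes that were higher, and 12, 6, 2 and 2 that were lower. The lone library of the smaller group is then assumed to vary like the other group.

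Most lipocalins outside the selected set had few or no fragments. Of 16 other lipocalin genes, 8 had 0 fragments in all 4 libraries, LCN1, LCN2, LCN9, LCN1P1, LCN1P2, OBP2A, OBP2B and APOD. Another 6, among them LCNL1 and C8G beside the cluster, had at most 4 fragments in any library and were not tested. RBP4, the plasma carrier of retinol, had 330 and 436 fragments in vector cells and 483 and 525 under JMJD3, with a log2 fold change of 0.16 (SE 0.13, edgeR adjusted p = 0.356). APOM, which binds sphingosine 1-phosphate on lipoproteins, had 67.0 and 52.0 against 53.0 and 65.0 fragments, with a log2 fold change of -0.27 (SE 0.25, edgeR adjusted p = 0.411). For both genes the scaled counts overlap between the groups. Of the 2 tested, 0 passed with edgeR, 0 had an unadjusted p under 0.05, and 0 passed with the DESeq2 Wald test or limma.

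The prostaglandin genes were described because PTGDS feeds that pathway. Prostaglandins start with the release of arachidonic acid and its conversion by cyclooxygenases, and terminal synthases then make the single prostaglandins, which act on receptors and are moved across membranes by carriers. Of 16 genes of this pathway other than PTGDS, 8 were tested, of which 3 rose and 3 fell, against 21.6% and 19.1% of all tested genes, with a median log2 fold change of 0.08. A receptor and the carriers made up the rise. PTGDR2, a receptor for prostaglandin D2 known from eosinophils, basophils and type 2 helper T cells, had 28.0 and 54.9 fragments in vector cells and 347 and 401 in JMJD3 cells. The vector libraries averaged 1.18 ± 0.454 CPM (SD, n = 2) and the JMJD3 libraries 9.14 ± 0.238 CPM (SD, n = 2), and its log2 fold change was 2.95 (SE 0.23, edgeR adjusted p = 0.000968).
SLCO2A1, the prostaglandin uptake carrier, had 41.0 and 49.0 fragments in vector cells and 248 and 323 under JMJD3, with a log2 fold change of 2.41 (SE 0.16, edgeR adjusted p = 0.000571). ABCC4, an exporter of prostaglandins and cyclic nucleotides, went from 425 and 424 to 713 and 857 fragments, and its log2 fold change was 0.63 (SE 0.11, edgeR adjusted p = 0.00666). For each of these genes both JMJD3 libraries were above both vector libraries.
PTGES2, a prostaglandin E synthase, fell, with a log2 fold change of -0.69 (SE 0.10, edgeR adjusted p = 0.00344). PLA2G4A, the phospholipase that releases arachidonic acid, fell by less, with a log2 fold change of -0.42, and PTGES3, a prostaglandin E synthase and HSP90 cochaperone, had -0.21. Neither of the latter 2 passed with limma on either FPKM scale, with no filter on low counts or without either JMJD3 library, where 1 gene of the list was lower. PTGES3 also did not pass with the DESeq2 Wald test, upper quartile scaling or the replicate block. PTGS1, a cyclooxygenase, was at 3.55 and 3.79 FPKM in vector cells and 3.15 and 3.41 FPKM in JMJD3 cells, and TBXAS1, the thromboxane synthase, at 32.5 and 34.1 against 37.1 and 37.4 FPKM, and neither passed the test. The scaled counts of PTGS1 overlap between the groups. PTGS2, HPGDS, PTGIS, CBR1, HPGD and PTGDR had 0 fragments in all 4 libraries. CBR1 is broadly expressed in other cells, and whether the counting dropped reads of genes at exactly 0 was not analysed here. Of the enzymes that make prostaglandin D2, HPGDS was thus at 0 in both groups. PTGDS had fragments in JMJD3 cells alone, only 9 and 6, and with counting error in both groups a difference is not certain. Of the receptors for prostaglandin D2, PTGDR was at 0 and PTGDR2 rose. PTGES and AKR1C3 had at most 11.1 fragments in any library and were not tested, and the counts of AKR1C3 are divided with a second identifier of that name.

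**Figure D1:**
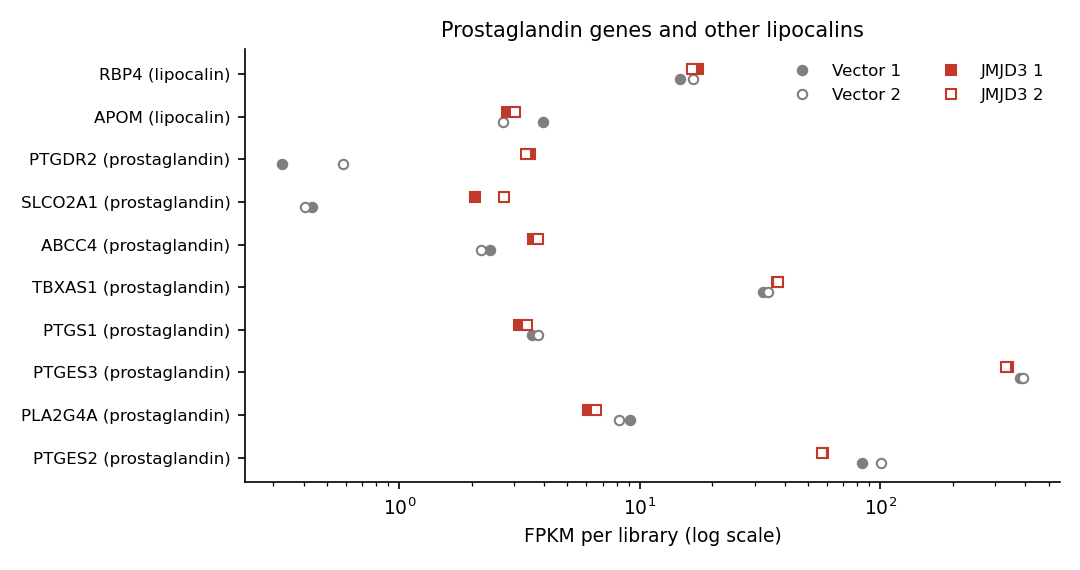
FPKM in each library (log scale; circles, vector; squares, JMJD3; filled, replicate 1; open, replicate 2) of the tested prostaglandin genes and the 2 tested lipocalins outside the selected set. PTGDR2 and SLCO2A1 lay between 0.326 and 0.584 FPKM in vector cells and between 2.05 and 3.49 FPKM in JMJD3 cells, while RBP4 stayed between 14.7 and 17.4 FPKM.

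Because these lipocalins are known from other tissues, the libraries were examined for markers of other cells. Of 7 promyelocyte markers, 6 were tested, and MPO, at 4889 and 5055 FPKM in vector cells and 3278 and 3324 FPKM in JMJD3 cells, was the most abundant. Of the 6, 4 fell and 2 rose, against 19.1% and 21.6% of all tested genes. The log2 fold changes were -3.91 for CTSG and -1.81 for PRTN3, azurophil granule proteases, -0.57 for MPO and -0.56 for AZU1, against 0.72 for CEBPE and 0.29 for CD33. ELANE, although a marker of this stage, was at 0.469 and 0.299 FPKM in vector cells and 0.0401 and 0.0677 FPKM in JMJD3 cells. Of 10 markers of the epididymal epithelium 9 had 0 fragments in all 4 libraries, CRISP1, EDDM3A, EDDM3B, DEFB118, DEFB119, DEFB129, ADAM7, SPINT3 and PATE1. WFDC8 had 0 fragments in both vector libraries and 1 in each JMJD3 library, under the floor, so that no difference was detectable. All 5 erythroid markers were at 0. Of 6 epithelial markers CDH1 and KRT19 were at 0, and EPCAM, the most abundant in vector cells, fell from 4.12 and 4.84 to 1.10 and 0.951 FPKM. KRT8, at 1.66 and 1.88 against 1.90 and 1.64 FPKM, and CLDN4, at 0.231 and 0.255 against 0.287 and 0.342 FPKM, did not pass the test.
Single markers of other blood cells and 1 of brain were higher together with the lipocalins. The summed level of 4 T cell markers was 3.04 and 4.29 FPKM in vector cells and 8.47 and 9.37 FPKM in JMJD3 cells, mostly CD2, which rose by a log2 fold change of 1.38. CD3D had 8 and 10 fragments in vector cells and 9 and 10 under JMJD3, and CD3E and CD3G had at most 4 in any library. CD79A, a B cell gene, rose from 8.14 and 10.2 to 16.9 and 15.7 FPKM (log2 fold change 0.83, edgeR adjusted p = 0.00416), with MS4A1 at 0. The summed level of 4 megakaryocyte markers was 0.359 and 0.520 against 0.620 and 1.29 FPKM, mostly ITGA2B, with PF4 and GP9 at 0. MBP, a myelin gene of the brain, rose from 31.6 and 23.4 to 57.5 and 69.3 FPKM (log2 fold change 0.78, edgeR adjusted p = 0.00305), while GFAP had 2 and 2 fragments in vector cells and 1 and 4 under JMJD3, and TTR was at 0. The part of such cells in the lipocalin values was not tested.

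The 5 tested genes outside the members whose log2 CPM profile over the 4 libraries came closest to that of LCN10 were H19, COL5A1, ENO1P4, HDC and AP001626.1. Their root mean square differences from LCN10, after centring, were 0.14, 0.14, 0.16, 0.27 and 0.27 on the log2 scale. H19, an imprinted lncRNA, had 32.0 and 52.0 fragments in vector cells and 618 and 727 in JMJD3 cells. HDC, which makes histamine, was the most abundant, at 19.2 and 19.6 FPKM in vector cells and 207 and 205 FPKM in JMJD3 cells. COL5A1, a fibrillar collagen whose start lies 2101 kb from that of LCN10 on the same chromosome, had 1 and 2 fragments against 52 and 70. The pseudogene ENO1P4 had 0 fragments in both vector libraries and 31.1 and 24.8 in JMJD3 cells, and AP001626.1 had 2 and 1 against 63 and 66. With 4 libraries in 2 groups, a like profile says little more than a like difference between the groups, and for genes near 0 it depends on the prior count of 2.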

How the data were processed

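RNA of NB4 cells was sequenced in 2 vector and 2 JMJD3 libraries. The deposited table gives, for every gene and library, an FPKM beside the authors' estimated count. Their own log2 fold change, p-value, FDR, group means and labels of significance and direction were not used. The sources differ on how the values were made. The study's methods name STAR, hg19, HTSeq-count and DESeq2, and the submitters' processing notes name CASAVA 1.8, TopHat2 2.0.4, RSEM, edgeR and GRCh38. The strand setting of the counting is not given in the sources used here, so that reads of a gene and of an antisense partner cannot be told apart. The deposited values were not whole counts, as the design had allowed for. The step of a library was its most frequent value between 0.5 and 1.5. For tests the deposited estimated counts were rounded, filtered with filterByExpr (15246 of 60662 genes), TMM-scaled and fitted in R 4.3.3 by the quasi-likelihood method of edgeR 4.0.16 without covariates, adjusting p by Benjamini-Hochberg over all genes kept. Each standard error is the absolute log2 fold change over the square root of F. CPM divides the deposited value by the TMM-scaled library size. A list gene passed the test at an adjusted p under 0.05 with any fold.

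Members and lists were chosen with earlier results of these data known. Named in each list were up to 5 genes that passed in each direction, by size of the log2 fold change. Others were named after their values were seen. Identifiers shared by 1 name were settled by GENCODE 44. Positions and promoters are those of RefSeq on GRCh38.p14, the build of the processing notes, matched by symbol, and exon overlaps come from GENCODE 44. The alternatives changed the scaling (upper quartile, or size factors from DESeq2 1.42.0), the tool (limma 3.58.1 on FPKM plus 1 or plus 0.1 in log2, or a Wald test in DESeq2) or the filter, or used a replicate block, 3 of the 4 libraries, 1.5-fold, or the 3 overlapping genes summed. Tests on fragments in place of deposited counts, a crossed block and all alternatives for the genes within 500 kb were added after seeing the data.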

Additional observations from a re-analysis of the deposited data

How the results depend on the processing

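KDM6B and the 4 fitted members kept their direction under every alternative, and KDM6B its side of the threshold. With limma on log2(FPKM + 1) and log2(FPKM + 0.1) the log2 fold changes were 1.81 and 3.31 for LCN10, 0.63 and 1.38 for LCN12 and 0.42 and 1.89 for RP11-216L13.16, and the first gave 2.79 for LCN6. The pseudocount shrinks low genes by construction. Summing the 3 overlapping genes gave 3.65 in place of the values of LCN10 and LCN6. Leaving out each library in turn gave from 3.90 to 4.23 for LCN10, 3.17 to 3.37 for LCN6, 1.84 to 2.24 for LCN12, 2.92 to 7.96 for RP11-216L13.16 and 3.46 to 3.82 for the sum. The 1151 genes called higher and 430 called lower became 293 and 168 with limma on log2(FPKM + 1), and 2296 and 1205 at 1.5-fold.

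In place of the 3 neighbouring genes that were higher, limma on either FPKM scale and no filter each gave 1, and left-out libraries 1 to 7. In place of the 7 that were lower, no filter gave 2 and left-out libraries 2 to 12. In place of the 3 prostaglandin genes that were lower, limma on either FPKM scale and no filter each gave 1, and left-out libraries 1 to 3. The cause was not tested. ABCA2 turned from 0.05 to -0.39 on both FPKM scales (-0.393 and -0.387), to -0.011 without vector replicate 1 and to -0.031 without JMJD3 replicate 2, against 0.12 without JMJD3 replicate 1. PTGS1 turned from -0.0028 to 0.035 with upper quartile scaling, 0.014 without vector replicate 2 and 0.0017 without JMJD3 replicate 2, against -0.056 without vector replicate 1. SNHG7 turned from -0.11 to 0.045 without vector replicate 2, against -0.29 without vector replicate 1. None of these passed the test. Of the other values of single genes, which kept direction, 49 no longer passed the test, 14 newly passed it and 410 kept their side. A lost call need not mean a smaller fold, since NOTCH1 went from 0.44 to 0.53 without JMJD3 replicate 1.

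With the replicate number as a block, LCN10 was at 4.07 and LCN6 at 3.29, with 1243 genes higher and 476 lower. A pairing by these numbers is stated nowhere, and across genes the deviations of both first replicates correlated at -0.146. Crossed numbers, added after seeing the data, gave 1233 and 469. The test on fragments, also chosen after seeing the data, gave 1156 and 438 genes and 4.08 for LCN10. LCN8, LCN15 and PTGDS were too low for the fit, and depth limits what can be said of them.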
